A study of Mus musculus with 14 samples.

Results

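Described here in mouse embryonic stem cells (ESCs) are 10 genes commonly read as signs of trophoblast, the outer lineage of the early embryo. They are the transcription factor genes Hand1, Dlx3, Gata2, Gata3, Elf5, Tfap2a and Tfap2c and the keratin genes Krt7, Krt8 and Krt18. They were chosen by symbol among the 41204 genes of the expression table, from a list drawn up with their levels in the 4 groups already known, so no p-value is printed for them, and their calls and intervals below are a description that supports nothing by itself. All 10 were found, and for 9 the average of the 8 RNA-seq samples passed the lower limit for a test, 0.2 FPKM. That of Elf5 did not. Hand1, Dlx3 and Krt7 passed this limit through their levels in PD + LIF only.

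The study compared wild-type ESCs with ESCs that lack the long noncoding RNA Trincr1 (Gm2694), in media with and without an inhibitor of the kinase GSK3. All cells had the background C57BL/6(F) x 129/sv(M), came from embryos of 3.5 days by their labels, and grew on gelatin in N2B27 with the MEK inhibitor PD0325901 and LIF. In 2i + LIF, the medium held PD0325901 at 1 μM, the GSK3 inhibitor CHIR99021 at 3 μM and LIF at 1000 units per ml. In PD + LIF, cells spent 24 h in 2i + LIF and then 4 days without CHIR99021. The time from plating to harvest is not stated for the 2i + LIF samples. Removal of CHIR99021 and time in culture therefore cannot be told apart in the differences between media. The 4 groups were thus wild type in 2i + LIF, Trincr1-ko in 2i + LIF, wild type in PD + LIF and Trincr1-ko in PD + LIF, with 2 poly(A) RNA-seq samples each. The knockout (Trincr1-ko) is a deletion made with Cas9 and a pair of guide RNAs that flank all exons of the gene but the first. The labels do not say whether its 2 samples come from 1 clone or from separate ones. MEK was inhibited in every group, so none of the values describes cells with free ERK signaling. By the paper's western blots, phosphorylated ERK was still higher in Trincr1-ko than in wild type in both media. In a second experiment, RNA bound to FLAG-tagged TRIM71, an RNA-binding protein, was pulled down from ESCs in 2i + LIF. These cells overexpressed the tagged protein.

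Trophoblast is the first lineage to part from the embryo proper and forms the placenta. The AP-2 factors TFAP2A and TFAP2C and the GATA factors GATA2 and GATA3 are among its regulators, ELF5 is known from trophoblast stem cells, HAND1 from giant cells, and DLX3 from the placental labyrinth. KRT8 and KRT18 are the type II and type I keratins that pair into the first filaments of simple epithelia, and KRT7 is a type II keratin of trophoblast and other epithelia. None of these genes is restricted to trophoblast, since AP-2, GATA, DLX and keratin genes are also used in surface ectoderm and HAND1 in mesoderm. ESCs rarely enter the trophoblast lineage on their own.

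The values are FPKM, fragments per 1000 bases of transcript scaled to the size of the library, which can be compared between genes because they are set per length. Estimated from the steps between low values, the libraries held about 9060000 to 12580000 fragments, and FPKM sums lay between 497115 and 519651. The partly deleted gene Gm2694 had 5.70 and 9.45 FPKM in wild type against 0.0754 and 0 FPKM in Trincr1-ko in 2i + LIF, and 6.18 and 6.56 against 1.38 and 0.746 FPKM in PD + LIF. Its level was thus lower in all 4 Trincr1-ko libraries than in any wild-type library, with some signal left in PD + LIF. The ESC identity of the samples was checked on 8 marker genes (Pou5f1, Sox2, Nanog, Zfp42, Esrrb, Klf4, Tfcp2l1 and Tbx3), whose summed level lay between 1804 and 1839 FPKM in 2i + LIF, between 1121 and 1156 FPKM in wild type in PD + LIF, and between 919 and 952 FPKM in Trincr1-ko in PD + LIF. Samples of a group are separate samples by their labels, but nothing says that they were separate cultures, so their spread may be technical. In bulk RNA, more cells of a type and more RNA per cell cannot be told apart, and this holds for every difference below.

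The change from 2i + LIF to PD + LIF went with higher levels of 8 of the 10 genes and with a lower level of 1, Tfap2a, in both genotypes. All 9 genes above the limit were called in wild type and all 9 in Trincr1-ko, where 52.2% and 50.0% of the 15430 genes tested were called. A call means an adjusted p under 0.05 in limma, a linear model of log2(FPKM + 1) over all genes. By a rule of a ratio above 2 at an average of at least 1 FPKM, 8 were called in wild type, all but Hand1, and 9 in Trincr1-ko, where 15.1% and 15.6% of all genes were. Because the genes were listed with these levels known, nothing is read from the counts. The median difference of the 9 genes was 1.83 in wild type and 2.77 in Trincr1-ko on this log2 scale, beside medians of 0.076 and 0.071 over all genes tested.

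**Figure D1:**
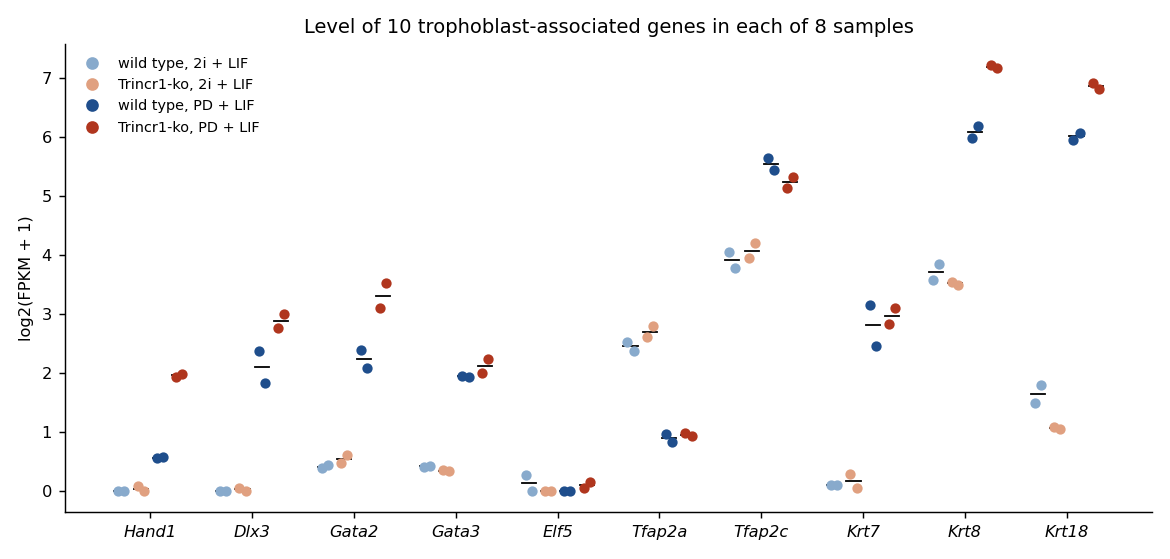
Level of each of the 10 genes as log2(FPKM + 1) on the y axis, with 1 point per sample, 4 groups of 2 samples per gene and a line at each group's mean. Krt8 and Krt18 stand highest in Trincr1-ko in PD + LIF, Tfap2a is the gene with its higher level in 2i + LIF, and Elf5 lies near 0 in all samples.

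Hand1 (ENSMUSG00000037335, chromosome 11, 57828705 to 57832818 in GRCm38) encodes a basic helix-loop-helix factor needed for giant cells and heart. It was listed at 0 in both wild-type samples and at 0.0515 and 0 FPKM in the Trincr1-ko samples in 2i + LIF. In PD + LIF it had 0.465 and 0.481 FPKM in wild type and 2.82 and 2.92 FPKM in Trincr1-ko. The gene was thus all but silent with the GSK3 inhibitor, low in wild type without it, and 6.07 times as high in Trincr1-ko as in wild type in PD + LIF. On the log2 scale the rise with the medium was 0.56 (SE 0.11) in wild type and 1.92 (SE 0.11) in Trincr1-ko.

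Dlx3 (ENSMUSG00000001510, chromosome 11, 95120119 to 95125296) encodes a homeodomain factor of placenta and skin. It was listed at 0 in both wild-type samples in 2i + LIF, and at 0.0342 and 0 FPKM in Trincr1-ko, the former being worth 0.981 fragments by the estimated depth. In PD + LIF it had 4.13 and 2.56 FPKM in wild type and 5.79 and 6.98 FPKM in Trincr1-ko. The estimated fragments behind these last 4 values were 137 and 69.8 in wild type and 161 and 221 in Trincr1-ko. Dlx3 therefore went from at most 1 fragment to a clear signal in both genotypes, with no overlap between media or, in PD + LIF, between genotypes. With 2 samples a group such a gap was common, found between media for 76.4% of all genes tested in wild type and 74.5% in Trincr1-ko, and between genotypes for 44.4% in 2i + LIF and 57.7% in PD + LIF. The rise was 2.10 (SE 0.19) in wild type and 2.86 (SE 0.19) in Trincr1-ko on the log2 scale.

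Gata2 (ENSMUSG00000015053, chromosome 6, 88193891 to 88207030) and Gata3 (ENSMUSG00000015619, chromosome 2, 9857078 to 9890034) encode zinc finger factors that act in trophoblast and also in blood and other tissues. Gata2 had 0.300 and 0.354 FPKM in wild type and 0.379 and 0.515 FPKM in Trincr1-ko in 2i + LIF, and 4.23 and 3.23 FPKM in wild type and 7.55 and 10.4 FPKM in Trincr1-ko in PD + LIF. Gata3 had 0.322 and 0.336 FPKM in wild type and 0.273 and 0.260 FPKM in Trincr1-ko in 2i + LIF, and 2.83 and 2.82 FPKM in wild type and 2.97 and 3.68 FPKM in Trincr1-ko in PD + LIF. Both genes were under 1 FPKM in all 4 samples with the GSK3 inhibitor and above 2 FPKM in all 4 samples without it. The ratio of the group means between media was 11.4 for Gata2 and 8.58 for Gata3 in wild type, and 20.1 and 12.5 in Trincr1-ko. The paralogues parted between genotypes: Gata2 per Gata3 was 1.32 ± 0.246 (SD, n = 2) in wild type and 2.69 ± 0.208 (SD, n = 2) in Trincr1-ko in PD + LIF. In 2i + LIF, with both genes under 1 FPKM, it was 0.993 ± 0.0846 and 1.69 ± 0.421 (SD, n = 2). Gata3 overlaps 3 other genes of the table, of which none passed 0.485 FPKM in any sample.

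The AP-2 genes moved in opposite directions with the medium. Tfap2a (ENSMUSG00000021359, chromosome 13, 40715675 to 40733823), known from trophoblast, neural crest and skin, had 4.76 and 4.14 FPKM in wild type and 5.08 and 5.90 FPKM in Trincr1-ko in 2i + LIF, against 0.940 and 0.771 FPKM in wild type and 0.964 and 0.901 FPKM in Trincr1-ko in PD + LIF. Tfap2c (ENSMUSG00000028640, chromosome 2, 172549593 to 172558622), known from trophoblast and germ cells, had 15.4 and 12.6 FPKM in wild type and 14.4 and 17.2 FPKM in Trincr1-ko in 2i + LIF, against 49.0 and 42.1 FPKM in wild type and 33.9 and 38.9 FPKM in Trincr1-ko in PD + LIF. Tfap2a was thus lower in every sample without the GSK3 inhibitor and Tfap2c was higher in every one. On the log2 scale, Tfap2a fell by 1.55 (SE 0.13) in wild type and by 1.75 (SE 0.13) in Trincr1-ko, while Tfap2c rose by 1.64 (SE 0.13) and 1.15 (SE 0.13). Tfap2a made up 24.2% ± 0.825 (SD, n = 2) of the summed Tfap2a and Tfap2c level in wild type and 25.8% ± 0.376 (SD, n = 2) in Trincr1-ko in 2i + LIF, but 1.84% ± 0.0605 and 2.51% ± 0.353 in PD + LIF. Tfap2c and Krt8 were the only genes of the 10 above 10 FPKM in every sample. An antisense gene that overlaps Tfap2a, Gm26688, stayed at 0.361 FPKM or less, and since the counting is not stated to use strand, its reads and those of Tfap2a cannot be told apart where they overlap.

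Elf5 (ENSMUSG00000027186, chromosome 2, 103411688 to 103450989), an ETS factor of trophoblast stem cells and mammary gland, gave almost no signal. It had 0.204 and 0 FPKM in wild type and 0 and 0 FPKM in Trincr1-ko in 2i + LIF. In PD + LIF it had 0 and 0 FPKM in wild type and 0.0279 and 0.112 FPKM in Trincr1-ko. At this depth no difference between groups was detectable for Elf5.

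On the scale of log2(FPKM + 1) the keratins rose with the medium in wild type by 4.36 (SE 0.11) for Krt18, 2.70 (SE 0.23) for Krt7 and 2.38 (SE 0.10) for Krt8, more than the other genes. This order depends on the constant added, since with 0.1 FPKM the rises of Dlx3, Gata2 and Gata3 were 5.07, 3.16 and 2.77 and that of Krt8 was at most 2.51 under any alternative. Krt8 (ENSMUSG00000049382, chromosome 15, 101996711 to 102004342) had 10.9 and 13.3 FPKM in wild type and 10.6 and 10.2 FPKM in Trincr1-ko in 2i + LIF, against 62.0 and 71.8 FPKM in wild type and 147 and 142 FPKM in Trincr1-ko in PD + LIF. Krt18 (ENSMUSG00000023043, chromosome 15, 102028216 to 102032026) had 1.81 and 2.45 FPKM in wild type and 1.11 and 1.07 FPKM in Trincr1-ko in 2i + LIF, against 60.6 and 65.9 FPKM in wild type and 119 and 111 FPKM in Trincr1-ko in PD + LIF. Both Trincr1-ko samples were above wild type in PD + LIF for both genes. In 2i + LIF they were below it, by a difference that was not called for either gene. Krt7 (ENSMUSG00000023039, chromosome 15, 101411043 to 101430313) had 0.0740 and 0.0636 FPKM in wild type and 0.218 and 0.0291 FPKM in Trincr1-ko in 2i + LIF, against 7.89 and 4.46 FPKM in wild type and 6.05 and 7.59 FPKM in Trincr1-ko in PD + LIF. Krt7 was thus near 0 in all 4 samples with the GSK3 inhibitor, and the genotypes overlapped in both media. The ratio of the means in PD + LIF to those in 2i + LIF was 5.53 for Krt8, 29.7 for Krt18 and 89.8 for Krt7 in wild type, and 13.9, 106 and 55.2 in Trincr1-ko.

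Krt8 and Krt18 lie side by side with 23873 bases between them and are read away from each other, while Krt7 lies 566397 bases before Krt8. The 250 bases before the start of each are shown because Krt8 and Krt18 are neighbours that were both higher in Trincr1-ko in PD + LIF, with that of Krt7, on the same chromosome, beside them. They come from the RefSeq promoter table in the build GRCm38.p6 and are written in the direction of the gene, 5′ to 3′. Capitals mark matches to the AP-2 motif GCCNNNGGC, the GATA motifs AGATAA and TGATAA, or the TEAD motif GGAATG, each searched on both strands, and no matches in these sequences overlapped. The RefSeq start of Krt7 lies inside the gene as the expression table gives it.
Krt8, chr15:102004343-102004592, minus strand: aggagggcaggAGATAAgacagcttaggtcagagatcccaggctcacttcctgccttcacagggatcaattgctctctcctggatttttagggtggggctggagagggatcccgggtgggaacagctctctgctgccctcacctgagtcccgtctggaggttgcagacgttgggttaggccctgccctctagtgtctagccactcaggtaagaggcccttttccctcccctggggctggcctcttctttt
Krt18, chr15:102027966-102028215, plus strand: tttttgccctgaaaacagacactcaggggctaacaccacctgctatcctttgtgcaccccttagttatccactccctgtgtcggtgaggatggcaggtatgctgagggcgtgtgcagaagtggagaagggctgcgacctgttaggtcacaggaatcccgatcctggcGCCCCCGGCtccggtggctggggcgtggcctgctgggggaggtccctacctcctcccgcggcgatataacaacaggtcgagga
Krt7, chr15:101412153-101412402, plus strand: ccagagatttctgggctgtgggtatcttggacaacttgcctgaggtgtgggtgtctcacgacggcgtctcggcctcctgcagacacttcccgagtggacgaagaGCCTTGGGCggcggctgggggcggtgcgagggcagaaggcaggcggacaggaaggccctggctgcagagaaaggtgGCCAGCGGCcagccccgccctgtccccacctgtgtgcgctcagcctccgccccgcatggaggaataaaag

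Krt7 held 2 AP-2 matches, which begin 146 and 70 bases before its start. Krt18 held 1 AP-2 match, 83 bases before its start, and Krt8 held 1 AGATAA match, 239 bases before its start. The table gave 10 promoters for 7 of the genes, with Hand1, Dlx3 and Tfap2c not among them. The AP-2 motif was in 4 of these 10 promoters (Krt7, Krt18, Gata3 with 3 matches and 1 of the 2 starts of Gata2) and in 13.7% of the 32851 promoters of the table. AGATAA was in 1 of 10 and in 9.99% of all, TGATAA in 0 of 10 and in 7.94% of all, and GGAATG in 2 of 10 (Elf5 and Gata2) and in 12.6% of all. A match is a description of letters and does not show that a factor binds there.

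The question of the knockout was asked in each medium. In 2i + LIF, 0 of the 9 genes were called between Trincr1-ko and wild type by limma, where 1.21% of all genes were. At an unadjusted p under 0.05 there was 1, Krt18, where 14.6% of all genes were, and by the ratio rule there were 0, where 1.95% of all genes were. Krt18 had the largest difference, -0.58 (SE 0.11, 95% interval -0.82 to -0.33) on the log2 scale, and a smaller constant added to FPKM brought it past the threshold, with -0.72 at 0.5 and -0.89 at 0.1, as did a limit of 1 FPKM for the mean. The 95% intervals of the other 8 included 0, from -0.44 to 0.05 for Krt8, from -0.04 to 0.55 for Tfap2a and, the widest, from -0.48 to 0.62 for Krt7.

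In PD + LIF, 5 of the 9 genes were called and all 5 were higher in Trincr1-ko, where 12.1% of all genes were called, 970 of them higher and 891 lower. The listing itself was made with these levels known, so nothing is read from this count either. The 5 were Hand1 with a difference of 1.39 (SE 0.11), Krt8 with 1.10 (SE 0.10), Gata2 with 1.07 (SE 0.18), Krt18 with 0.86 (SE 0.11) and Dlx3 with 0.78 (SE 0.19) on the log2 scale. By the ratio rule 3 were called, Hand1, Gata2 and Krt8, where 3.19% of all genes were. Ratios of the FPKM means were 6.07 for Hand1, 2.41 for Gata2, 2.16 for Krt8, 1.91 for Dlx3 and 1.82 for Krt18. The remaining 4 were not called. Gata3 differed by 0.17 (95% interval -0.12 to 0.46), Krt7 by 0.16 (-0.39 to 0.71) and Tfap2a by 0.06 (-0.24 to 0.36). Tfap2c, at -0.32 (-0.62 to -0.01), was the gene with lower values in Trincr1-ko than in wild type, in both samples. Median differences were 0.78 over the 9 genes and 0.010 over all genes.

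The calls of Hand1 and Krt8 in PD + LIF were made in all of the alternatives that tested them. Without wild-type replicate 2 in PD + LIF, the differences of Gata2 and Dlx3 were 0.92 and 0.52 and were not called. Without Trincr1-ko replicate 2 they were 0.86 and 0.67 and not called. Without Trincr1-ko replicate 1, those of Krt18 and Dlx3 were 0.81 and 0.90 and not called. Dlx3 was also not called without any 1 of the 4 samples in 2i + LIF, where its difference stayed at 0.78. With 0.5 or 0.1 FPKM added in place of 1 it was not called at 0.87 and 0.94, nor was it called at 0.78 without a limit on low values or when only the 2 groups compared were fitted. In the last of these Gata2 was not called either.

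**Figure D2:**
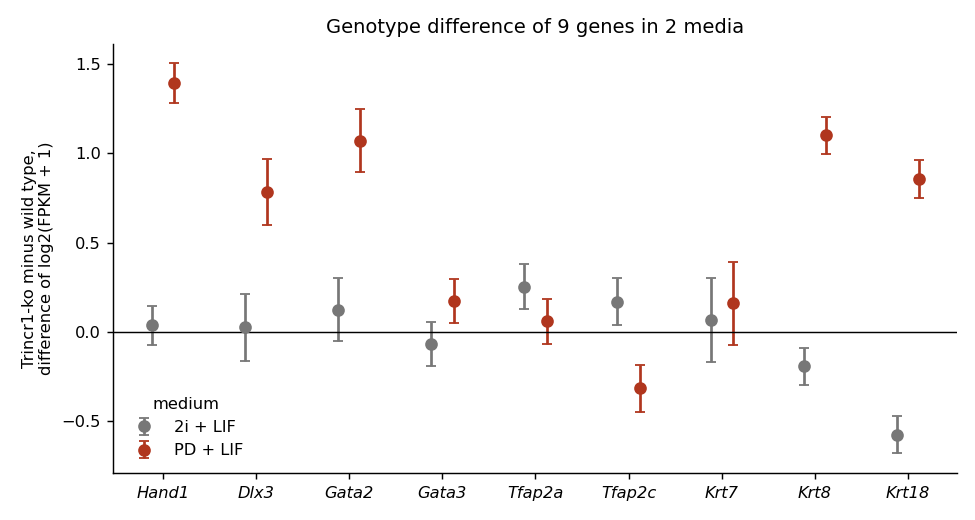
Difference between Trincr1-ko and wild type in log2(FPKM + 1) on the y axis for 9 genes, with the standard error of the linear model as bars, in grey for 2i + LIF and in red for PD + LIF. Hand1, Gata2, Krt8, Krt18 and Dlx3 stand between 0.78 and 1.39 in PD + LIF, while Gata3, Krt7 and Tfap2a stand near 0 in that medium.

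The genotype difference was larger in PD + LIF than in 2i + LIF for 3 of the 9 genes by the test of the difference itself, where 1.81% of all genes were called. Since the genes were listed with these levels known, nothing is read from this count. The difference of differences was 1.43 (SE 0.15) for Krt18, 1.36 (SE 0.16) for Hand1 and 1.29 (SE 0.15) for Krt8 on the log2 scale. Hand1 did not pass 0.0515 FPKM in 2i + LIF, so its genotype difference there could only be near 0. Its value of 1.36 thus restates its difference in PD + LIF. For Gata2 and Dlx3 it was 0.95 (95% interval 0.36 to 1.53) and 0.76 (0.14 to 1.38) and was not called. For Krt7 it was 0.09 (-0.69 to 0.87) and for Tfap2c -0.48 (-0.92 to -0.05). Leaving out any 1 of the 8 samples left between 0 and 2 of these 3 calls, and the lost ones stood at 1.16 to 1.49. Krt18 was called without either wild-type sample in 2i + LIF and Krt8 without the first of them. Every other call was lost when any 1 sample was left out, and with 0.1 FPKM added that of Hand1 was lost at 2.07.

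KRT8 and KRT18 can pair in the filament, so the balance of their RNAs was compared. Krt8 per Krt18 was 5.72 ± 0.373 (SD, n = 2) in wild type and 9.55 ± 0.0198 (SD, n = 2) in Trincr1-ko in 2i + LIF, and 1.06 ± 0.0473 (SD, n = 2) and 1.25 ± 0.0267 (SD, n = 2) in PD + LIF. Both RNAs were thus at near equal levels once the GSK3 inhibitor was gone, from a start at which Krt8 was several times higher. Since FPKM is set per length, the ratio compares molecules. Krt8 rested on 168 to 3068 estimated fragments per library and Krt18 on 13.6 to 1871, with the lowest of these in Trincr1-ko in 2i + LIF. RefSeq lists a pseudogene, Krt8-ps, and how reads that fit both were counted is not given in the sources used here.

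**Figure D3:**
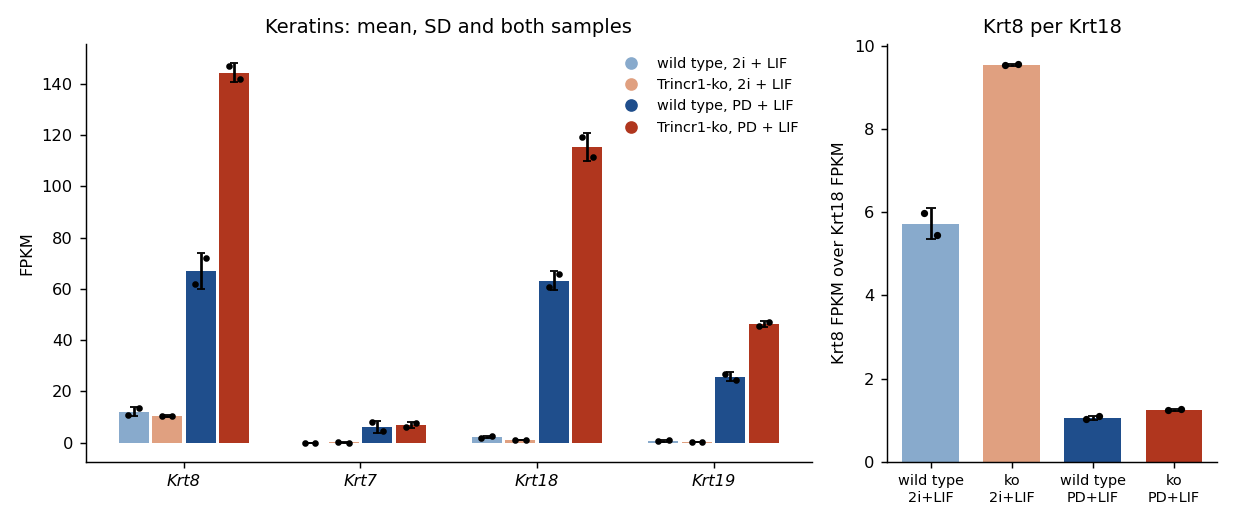
Left, FPKM of 4 keratin genes in 4 groups, as bars of the mean with SD and both samples as points. Right, the ratio of Krt8 to Krt18 per group in the same form, which stands at 5.72 and 9.55 in 2i + LIF and at 1.06 and 1.25 in PD + LIF.

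The other 14 keratins of a list were mostly silent, and 4 passed the limit for a test, Krt10, Krt17, Krt19 and Krt42. Krt42 was lower in PD + LIF than in 2i + LIF, at 7.01 against 12.5 FPKM in wild type and 6.15 against 9.46 FPKM in Trincr1-ko (means, n = 2). Krt17 was higher, at 5.39 against 3.00 FPKM in wild type and 6.45 against 1.57 FPKM in Trincr1-ko. Krt10 lay between 0.644 and 1.14 FPKM in all samples. Krt19, a type I keratin of simple epithelia, had 0.547 and 1.08 FPKM in wild type and 0.301 and 0.215 FPKM in Trincr1-ko in 2i + LIF, and 26.9 and 24.5 FPKM in wild type and 45.6 and 47.1 FPKM in Trincr1-ko in PD + LIF. It rose with the knockout in PD + LIF by 0.83 (SE 0.14, adjusted p = 0.0155 in limma), and its genotype difference changed between media by 1.34 (SE 0.20, adjusted p = 0.0331). The call in PD + LIF was lost without any 1 of the 4 samples in that medium, at values of 0.76 to 0.89, and that of the difference between media without any 1 of 7 samples, all but wild-type replicate 1 in 2i + LIF, at 1.12 to 1.40. Krt19 lies on chromosome 11, away from Krt18, and made up 29.0% ± 2.57 (SD, n = 2) of the summed Krt18 and Krt19 level in wild type and 28.7% ± 1.43 (SD, n = 2) in Trincr1-ko in PD + LIF. With Krt7 and Krt8 as type II and Krt18 and Krt19 as type I, the type II level per type I level was 0.822 ± 0.0319 in wild type and 0.935 ± 0.00903 in Trincr1-ko (SD, n = 2) in PD + LIF. The 10 keratins under the limit, among them Krt5 and Krt14 of stratified epithelia, did not pass 0.475 FPKM in any sample.

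Genes that join keratins to the cell border were compared as well. Of 11 desmosome and anchoring genes, 0 were higher and 2 were lower in Trincr1-ko in PD + LIF by limma, where 12.1% of all genes were called, with 1 higher and 3 lower at an unadjusted p under 0.05, where 28.5% of all genes were called, and the median difference was 0.011. Pkp2, which encodes a plakophilin, was lower in Trincr1-ko in both media, by -1.50 (SE 0.10, adjusted p = 0.00252) in 2i + LIF and -0.50 (SE 0.10, adjusted p = 0.0267) in PD + LIF in limma. Dsp, which encodes the desmosomal plaque protein desmoplakin, had 10.2 and 8.93 FPKM in wild type and 5.83 and 6.47 FPKM in Trincr1-ko in PD + LIF, a difference of -0.56 (SE 0.13, adjusted p = 0.0359). Both calls in PD + LIF were lost without any 1 of the 4 samples in that medium, and that of Dsp also without either wild-type sample in 2i + LIF, at values from -0.65 to -0.44. For Plec, a linker of filaments, the genotype difference changed between media by 0.63 (SE 0.11, adjusted p = 0.0443), and for Pkp2 by 1.00 (SE 0.15, adjusted p = 0.0295), calls that were lost without any 1 of the 8 samples, at 0.59 to 1.11. With the medium, 8 of the 11 genes rose and 2 fell in each genotype, where 52.2% of all genes were called in wild type and 50.0% in Trincr1-ko, and the medians were 0.80 and 1.17.

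Further trophoblast genes were read by stage, from lists that were also set up with earlier results of these data known. Of 11 stem and progenitor genes, 3 were higher and 2 lower in Trincr1-ko in PD + LIF, where 12.1% of all genes were called, with a median difference of 0.13. Cdx2, a homeodomain factor of trophoblast stem cells and also of caudal tissue, had 0.727 and 0.766 FPKM in wild type and 2.60 and 3.43 FPKM in Trincr1-ko in 2i + LIF, but 0.104 and 0.0416 FPKM in wild type and 0.166 and 0.109 FPKM in Trincr1-ko in PD + LIF. It fell in both genotypes with the medium, the opposite of Hand1, Gata2, Krt7, Krt8 and Krt18. In 2i + LIF it was higher in Trincr1-ko by 1.19 (SE 0.14, adjusted p = 0.0120 in limma). That call was lost without any 1 of 3 samples, the 2 of wild type and replicate 2 of Trincr1-ko in 2i + LIF, at values of 1.04 to 1.21. Plet1, a surface protein of the ectoplacental region, was lower in Trincr1-ko by -0.92 (SE 0.14, adjusted p = 0.0293) in 2i + LIF and by -0.89 (SE 0.14, adjusted p = 0.00975) in PD + LIF. The first of these calls was lost without any 1 of the 8 samples, and the second without replicate 1 of either genotype in PD + LIF, at values between -1.06 and -0.77. Id2, an inhibitor of helix-loop-helix factors, rose by 0.77 (SE 0.20, adjusted p = 0.0498), and Ddah1, an enzyme that degrades dimethylarginine, by 0.32 (SE 0.08, adjusted p = 0.0370) in PD + LIF, and in 2i + LIF Ddah1 was lower, by -0.63 (SE 0.08, adjusted p = 0.0124). The calls in PD + LIF were lost without any 1 of the 4 samples in that medium, that of Id2 also without either wild-type sample in 2i + LIF and that of Ddah1 without any 1 of the 8, at 0.60 to 0.94 and 0.29 to 0.35, and the call of Ddah1 in 2i + LIF was lost without any 1 of the 4 samples there, at -0.69 to -0.57. Of the rest of this list, 4 genes were picked once their values had been seen. The cadherin gene Cdh3 had 32.4 and 31.4 FPKM in wild type and 16.0 and 19.7 FPKM in Trincr1-ko in PD + LIF, a difference of -0.81 (SE 0.14, adjusted p = 0.0161) that was not called without either wild-type sample or Trincr1-ko replicate 1 in PD + LIF, at -0.83 to -0.67. The factor gene Eomes had 2.93 to 3.16 FPKM in wild type and 1.88 to 2.06 FPKM in Trincr1-ko in 2i + LIF, and 1.46 and 1.63 FPKM in wild type and 0.813 and 0.953 FPKM in Trincr1-ko in PD + LIF, and was not called between genotypes. The FGF receptor gene Fgfr2 and the homeobox gene Esx1 were not called between genotypes either, and in wild type they rose with the medium from 0.983 and 0.541 FPKM to 38.8 and 26.2 FPKM (means, n = 2). The list thus held genes that rose and genes that fell with the medium, 5 and 4 in each genotype. Over all genes, 52.2% were called with the medium in wild type and 50.0% in Trincr1-ko.

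Later placental stages were read in the same way. Of 6 spongiotrophoblast and ectoplacental genes, 4 were tested. All 4 rose with the medium in each genotype, where 52.2% of all genes were called in wild type and 50.0% in Trincr1-ko. In PD + LIF, where 12.1% of all genes were called, 3 rose in Trincr1-ko, and the median difference of the 4 was 0.68. Peg10, an imprinted gene derived from a retrotransposon, had 8.96 and 7.40 FPKM in wild type and 17.6 and 19.9 FPKM in Trincr1-ko in 2i + LIF, and 103 and 83.6 FPKM in wild type and 198 and 230 FPKM in Trincr1-ko in PD + LIF. Its difference between genotypes was 1.11 (SE 0.13, adjusted p = 0.0124) in 2i + LIF and 1.19 (SE 0.13, adjusted p = 0.00370) in PD + LIF in limma, and the first of these calls was lost without any 1 of the 4 samples in 2i + LIF, at values between 0.98 and 1.23. Ascl2, a helix-loop-helix factor of the ectoplacental cone, rose by 0.81 (SE 0.17, adjusted p = 0.0272) and Phlda2, an imprinted restrainer of placental growth, by 0.55 (SE 0.07, adjusted p = 0.00656) in PD + LIF. The call of Ascl2 was lost without either wild-type sample in 2i + LIF and without any 1 of the samples in PD + LIF, at values of 0.66 to 0.96. Tpbpa, the marker of mature spongiotrophoblast, was at 0 in all samples.

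Of 7 giant cell genes, 4 were at 0 in all samples, namely the placental hormones and the protease Prl2c2, Prl3d1, Prl3b1 and Ctsq. The 2 tested, Bhlhe40 and Mmp9, were not called between genotypes, with 14.2 and 14.5 FPKM in wild type and 12.4 and 11.8 FPKM in Trincr1-ko for Bhlhe40 in PD + LIF. Of 7 syncytiotrophoblast genes, 5 were tested. In PD + LIF, where 12.1% of all genes were called, 2 of the 5 rose in Trincr1-ko. These were the lactate transporters Slc16a3, by 0.63 (SE 0.10, adjusted p = 0.0113 in limma), and Slc16a1, by 0.22 (SE 0.05, adjusted p = 0.0373), both of which are used by many cell types. The call of Slc16a3 was lost without replicate 1 of either genotype in PD + LIF, at 0.50 and 0.53, and that of Slc16a1 without any 1 of the 8 samples, at 0.18 to 0.25. Synb, a fusion gene of the labyrinth, was at 0 in all samples.

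The Hippo pathway sets the trophoblast program through YAP1 and TEAD4, and 10 of its genes were compared. In PD + LIF, where 12.1% of all genes were called, 3 were higher and 1 was lower in Trincr1-ko, with a median difference of 0.16. Amot, which holds YAP1 at cell junctions, rose by 0.57 (SE 0.12, adjusted p = 0.0279 in limma), the kinase gene Lats2 by 0.49 (SE 0.12, adjusted p = 0.0438) and Yap1 by 0.21 (SE 0.05, adjusted p = 0.0409). Tead4, the partner of YAP1 in trophectoderm, was lower, by -0.32 (SE 0.07, adjusted p = 0.0291), from 12.9 and 12.3 FPKM in wild type to 9.80 and 9.94 FPKM in Trincr1-ko. All 4 calls were lost without any 1 of the 4 samples in PD + LIF, that of Lats2 also without any 1 of the samples in 2i + LIF and that of Yap1 also without either Trincr1-ko sample in 2i + LIF. The values then lay between 0.53 and 0.60 for Amot, 0.38 and 0.60 for Lats2, 0.19 and 0.23 for Yap1, and -0.36 and -0.29 for Tead4. Of 18 paralogues of the transcription factors, 7 were tested. By limma 0 were called between genotypes in either medium, where 1.21% of all genes were in 2i + LIF and 12.1% in PD + LIF. At an unadjusted p under 0.05 there were 0 in 2i + LIF, where 14.6% of all genes were. In PD + LIF there were 2, where 28.5% of all genes were. The most abundant, Elf3 and Elf2, had 39.6 to 46.3 and 21.6 to 25.4 FPKM in PD + LIF.

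**Figure D4:**
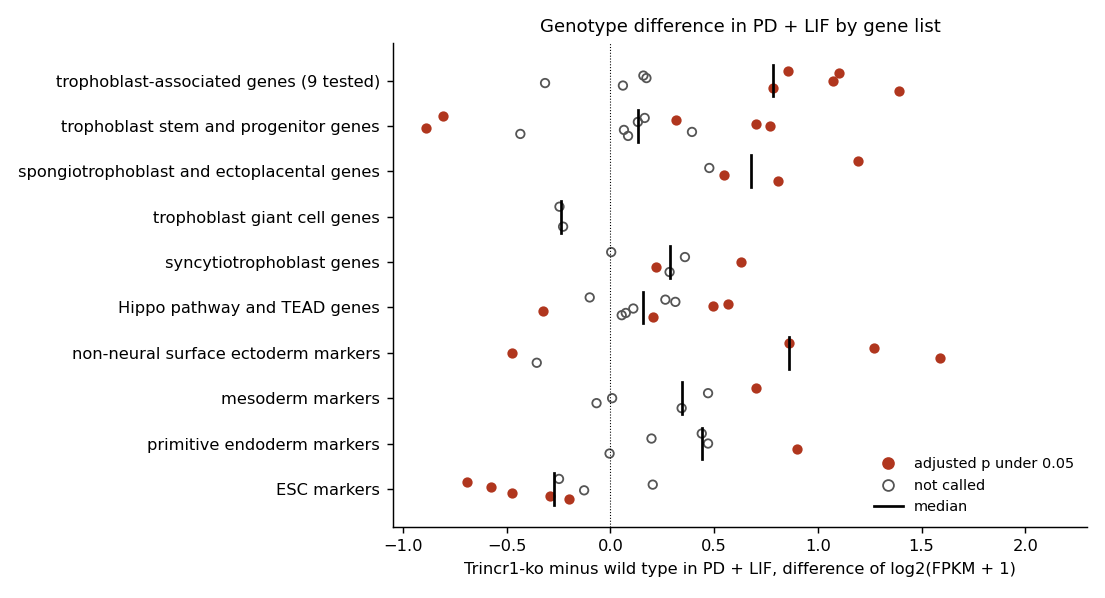
Difference between Trincr1-ko and wild type in PD + LIF in log2(FPKM + 1) on the x axis, with 1 point per gene tested, filled where limma gave an adjusted p under 0.05, and a line at the median of each list. The medians stand at 0.78 for the trophoblast-associated genes, 0.13 for stem and progenitor genes, 0.68 for spongiotrophoblast genes, 0.86 for surface ectoderm markers and -0.27 for ESC markers.

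Markers of other lineages that use the same genes were read beside them. Of 10 markers of non-neural surface ectoderm, 5 were tested. In PD + LIF, where 12.1% of all genes were called, 3 were higher and 1 was lower in Trincr1-ko. The summed level of the list was 6.45 to 7.08 FPKM in wild type and 12.1 to 12.3 FPKM in Trincr1-ko in 2i + LIF, and 15.1 to 16.2 and 20.0 to 21.2 FPKM in PD + LIF. Grhl2, a factor of epithelial junctions, was higher in Trincr1-ko by 2.16 (SE 0.16, adjusted p = 0.00271) in 2i + LIF and 1.59 (SE 0.16, adjusted p = 0.00288) in PD + LIF in limma. Msx1 and Msx2, homeobox targets of BMP signaling, rose in PD + LIF by 1.27 (SE 0.18, adjusted p = 0.00824) and 0.86 (SE 0.13, adjusted p = 0.00995), and Grhl3 was lower by -0.47 (SE 0.10, adjusted p = 0.0304). The calls of Msx1 and Msx2 were lost without replicate 1 of either genotype in PD + LIF, at 1.13 and 1.21 for Msx1 and 0.75 and 0.85 for Msx2, and that of Grhl3 without any 1 of the 4 or without Trincr1-ko replicate 2 in 2i + LIF, at -0.53 to -0.41. The 5 under the limit, Trp63, Krt5, Krt14, Dlx5 and Tfap2b, stayed at 0.248 FPKM or less.

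Of 8 mesoderm markers found, 5 were tested and 1 rose in Trincr1-ko in PD + LIF, where 12.1% of all genes were called. This share also stands beside the counts of the lists that follow. The gene was Bmp4, by 0.70 (SE 0.15, adjusted p = 0.0265 in limma), a signaling protein that is also in the trophoblast progenitor list. The summed level was 10.1 to 11.1 FPKM in wild type and 11.3 to 12.7 FPKM in Trincr1-ko in 2i + LIF, and 2.49 to 3.13 and 4.97 to 5.58 FPKM in PD + LIF. Much of it was Bmp4, with means of 7.72 and 8.52 FPKM in 2i + LIF and 1.72 and 3.42 FPKM in PD + LIF. Of 10 primitive endoderm markers, 5 were tested and Foxa2, an endoderm factor, rose by 0.90 (SE 0.17, adjusted p = 0.0182), Afp was at 0 in all samples, and the summed level was 5.11 to 5.78 FPKM in wild type and 8.01 to 8.69 FPKM in Trincr1-ko in PD + LIF. Of 6 fibroblast markers, 3 were tested and Col1a1, a collagen chain, rose by 1.03 (SE 0.11, adjusted p = 0.00370) in PD + LIF, with a summed level of the list of 4.14 to 4.59 FPKM in wild type and 5.56 to 6.34 FPKM in Trincr1-ko. Of the 8 ESC markers, 5 were lower and 0 higher in Trincr1-ko in PD + LIF by limma. At an unadjusted p under 0.05, 7 were lower and 0 higher, where 28.5% of all genes were called. Among the 5 were Tfcp2l1 by -0.69 (SE 0.07, adjusted p = 0.00363), Esrrb by -0.57 (SE 0.06, adjusted p = 0.00333), Nanog by -0.47 (SE 0.07, adjusted p = 0.00876) and Sox2 by -0.29 (SE 0.06, adjusted p = 0.0286). The call of Bmp4 was lost without wild-type replicate 1 or either Trincr1-ko sample in PD + LIF, at 0.53 to 0.82, that of Foxa2 without any 1 of the 4, at 0.80 to 1.00, and that of Nanog without replicate 1 of either genotype, at -0.39 for both. The call of Sox2 was lost without any 1 of the wild-type samples of either medium or Trincr1-ko replicate 1 in PD + LIF, at -0.34 to -0.21. These markers differed in the same comparison as Hand1, Gata2, Dlx3, Krt8 and Krt18, and their part in the levels of these genes was not tested.

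Among themselves, the 9 genes split by 1 member. Over the 8 samples, Pearson's r of log2(FPKM + 1) was 0.990 for Krt8 with Krt18, 0.992 for Dlx3 with Gata2 and 0.994 for Gata3 with Krt18, and it was between -0.987 and -0.758 for Tfap2a with the other 8. The points share 4 groups and the libraries, so these values describe the medium as much as the genes. The genes outside the list that were most like each of 8 members with a mean of at least 1 FPKM, among 12063 such genes, had r between 0.995 and 0.999. They were Krt19, Fbxl16 and Micall1 for Krt18, Sepn1, Efnb2 and Sox1 for Krt8, and Wnk2, Nrk and Creb3l4 for Krt7. For Gata2 they were Afap1l2, Otud5 and Zfp266, for Gata3 Perp, Enho and Kif26a, and for Dlx3 Ftx, Cttnbp2nl and Map4k5. For Tfap2c they were Pnisr, Rnf207 and Abca7, and for Tfap2a Srm, Fetub and Rfng. Krt19 was thus the gene whose pattern was most like that of Krt18 among these genes, with an r of 0.999. Efnb2, a ligand of Eph receptors, had 0.603 and 0.765 FPKM in wild type and 0.564 and 0.498 FPKM in Trincr1-ko in 2i + LIF, against 5.27 and 5.67 FPKM in wild type and 12.2 and 13.2 FPKM in Trincr1-ko in PD + LIF, the same order of groups as Krt8.

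The TRIM71 pulldown gives 1 value per transcript for the immunoprecipitation (IP) and 1 for the input, with no replicate that can be told apart, so it gives values without a test. In the input from ESCs in 2i + LIF, Tfap2c had 34.9 FPKM, Krt8 15.9 FPKM, Gata2 7.9 FPKM, Krt18 6.9 FPKM and Krt7 1.4 FPKM, and the other 5 genes had 0.5 FPKM or less. These levels were unlike those of the RNA-seq samples in 2i + LIF. There Tfap2c had 12.6 to 17.2 FPKM, Gata2 0.300 to 0.515 FPKM and Krt18 1.07 to 2.45 FPKM, all below the input. Tfap2a had 4.14 to 5.90 FPKM there, above the 0.4 FPKM of the input. The cause of these differences was not tested. In the IP, only Krt8 with 2.1 FPKM and Gata2 with 0.3 FPKM were above 0. The ratio of the authors' scaled IP to their scaled input was 0.302 for Krt8 and 0.0759 for Gata2, beside a median of 0.0571 over the 9651 transcripts with an input above 2 FPKM. Of the 4 genes with such an input, 0 had a ratio above 3, as 5.10% of these transcripts did. Tfap2c was listed at 0 in the IP, as were 31.0% of the 1650 transcripts with an input within 1.5 times of its own, and Krt18 was listed at 0, as were 59.4% of 2256. The depth of the IP is unknown, so a value of 0 is no measure of absence.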

How the data were processed

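Poly(A) RNA of 8 ESC samples was sequenced. The submitters' processing notes name STAR 2.5.0 and Cufflinks 2.2.1, and the authors deposited FPKM values per gene. The labels name the build mm9, while the coordinates in the file are those of GRCm38, and the counting is not stated to use strand. For the pulldown the authors deposited FPKM values and a scaled signal, each with a single value for a transcript in the input and a single value in the IP. Their scaled IP is 2.25 times the unscaled one. How the 2 labelled replicates were joined is unknown, and the empty-vector IP was left out, as not analysed here.

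Of 41260 entries, the 1 with the highest mean was kept for each of 39 gene identifiers with several, which left 41204 genes. The 15430 genes with a mean above 0.2 FPKM were compared as log2(FPKM + 1) with limma 3.58.1 (R 4.3.3), with a trend in the variance, all 4 groups in 1 fit and 4 residual degrees of freedom, and p-values were adjusted by Benjamini-Hochberg over all genes tested. Differences on this scale understate those of genes with low values. Depth was estimated from the lowest FPKM steps of genes with 1 transcript of 1000 to 3000 bases, without a correction for effective length, so fragments are approximate. The fit was tested on simulated data. Alternatives changed the constant added, the filter, the scaling, the variance model, the samples fitted and a rule of a ratio above 2 at an average of at least 1 FPKM.

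Cdh3, Eomes, Fgfr2 and Esx1 were picked once their values had been seen. The members and all gene lists were chosen with earlier results of these data known. All 10 members are named, with up to 4 called genes per further list by the largest difference (the 2 most abundant where none was called), and the 3 genes most like each member with a mean of at least 1 FPKM. Promoters come from RefSeq (GRCm38.p6). Foxf1 was not matched in the table by this symbol. Further steps used pandas 2.3.3, numpy 2.4.6 and matplotlib 3.10.9 in Python 3.11.15.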

Additional observations from a re-analysis of the deposited data

Results flagged for a closer look

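Genotype differences that were not alike in the media, by the limma test of the difference itself, were found for 3 of the 10 genes and for 9 genes of the further lists. Over all genes tested, 1.81% were called by this test. Both the 10 genes and the further lists were chosen with earlier results of these data known, so nothing is read from these counts. In the order of PD + LIF minus 2i + LIF on the log2 scale, the values were 1.43 for Krt18, 1.36 for Hand1 and 1.29 for Krt8. For Krt18 the difference between Trincr1-ko and wild type was -0.58 in 2i + LIF and 0.86 in PD + LIF, so that it pointed the opposite way in the other medium. For Krt8 it was -0.19 and 1.10, and for Hand1 0.04 and 1.39. Hand1 did not pass 0.0515 FPKM in 2i + LIF, so the first of its values could only be near 0.

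For the 9 other genes, the adjusted p in limma lay between 0.0210 and 0.0456. Id2 (1.58), Krt19 (1.34), Ddah1 (0.95) and Plec (0.63) had a negative difference in 2i + LIF and a positive one in PD + LIF, and Col1a1 (1.11) had -0.08 and 1.03. Pkp2 (1.00) was lower in both media, by less in PD + LIF. Cdx2 (-1.11) was higher in Trincr1-ko in 2i + LIF, by 1.19, and differed by 0.08 in PD + LIF. The ESC factors Tfcp2l1 (-0.75) and Esrrb (-0.67) differed by 0.05 and 0.10 in 2i + LIF and were lower in PD + LIF. When 1 sample was left out, which also leaves fewer degrees of freedom, the calls of Hand1, Id2, Ddah1, Plec, Col1a1, Pkp2, Cdx2 and Tfcp2l1 were lost without any 1 of the 8 samples. Those of Krt8, Krt19 and Esrrb were lost without 7 of the 8, and that of Krt18 without 6. All of these values kept their sign.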

How the results depend on the processing

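Of the 26 calls made for the 10 genes over the 5 comparisons, 20 were made in every alternative limma fit that tested the gene and 6 were lost in at least 1, and no called value changed its sign. The 6 were those of Dlx3, Gata2 and Krt18 in PD + LIF and of Hand1, Krt8 and Krt18 in the difference between media. With the ratio rule 7 were lost, the seventh being the rise of Hand1 with the medium in wild type. The number of the 10 genes called between genotypes in PD + LIF was 3 when only the 2 groups compared were fitted and 3 by the rule of a ratio above 2, and 3 to 5 when 1 sample was left out. In 2i + LIF it was 1 with a constant of 0.1 or 0.5 FPKM, where 205 and 194 of all 15430 genes tested were called. With a limit of 1 FPKM it was 1 of the 8 still tested, where 227 of 12063 genes were called. For the difference of the genotype effect between media, 0 to 2 of the genes were called when 1 sample was left out. Over all genes, those called in 2i + LIF numbered 122 without a filter on low values, 0 when only the groups compared were fitted, 301 by the ratio rule, and 40 to 113 when 1 sample was left out. In PD + LIF they numbered 316 with only the groups compared, 492 by the ratio rule and 335 to 1519 when 1 sample was left out. For the difference between media they numbered 138 without a filter, 88 without a variance trend and 3 to 34 when 1 sample was left out, which leaves 3 residual degrees of freedom. By the ratio rule, 2328 genes were called with the medium in wild type and 2405 in Trincr1-ko. The cause of the other changes was not tested.

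Samples share replicate numbers, but the deviations of replicate 1 from its group mean had correlations between groups of -0.054 to 0.0063. No shared deviation was thus seen, which cannot tell whether samples of the same number were prepared together. With the replicate block, 111 genes were called between genotypes in 2i + LIF and 39 for the difference of the genotype effect between media. The calls of Dlx3 between genotypes in PD + LIF (0.78) and of Hand1 for that difference of effects (1.36) were lost. The depth of the pulldown is unknown, and for Elf5, Hand1 and Dlx3 in 2i + LIF the depth limits what can be seen to a few fragments.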
